A study of Mus musculus with 12 samples.

Results

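Transcripts of 9 accessory clock factors were followed in mouse liver: the REV-ERB nuclear receptors Nr1d1 and Nr1d2, the retinoic acid receptor-related orphan receptor Rora, the proline and acidic amino acid-rich basic leucine zipper (PAR bZIP) activators Dbp, Tef and Hlf, their bZIP relative Nfil3, and the DEC factors Bhlhe40 and Bhlhe41. They were taken by gene symbol, and all 9 were found among the 23849 symbols of the expression table. Of these, 8 were among the 9806 genes that passed a filter on low values and could be tested, while Bhlhe41 stayed below it. Liver RNA was sequenced from 12 male C57BL/6J mice, 8 weeks old per the series description, all fed a high-fat diet (HFD). Mice received vehicle or Libramed, the product that the study calls Policaptil Gel Retard, for 2 weeks. Per the paper these were the last 2 weeks of a longer period on HFD. Livers were collected at zeitgeber time (ZT) 0, when lights go on, or ZT12, when lights go off, which gave 4 groups of 3 mice (vehicle ZT0, vehicle ZT12, Libramed ZT0 and Libramed ZT12). Policaptil Gel Retard is a blend of fibers that forms a gel in the gut, and it was given by daily gavage shortly before the dark phase, per the methods, while control mice received drinking water. The labels name no engineered allele, and since all mice ate HFD, the values hold no lean reference.

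These factors form the second loop of the circadian clock. The activators BMAL1 (encoded by Arntl) and CLOCK bind E-boxes and drive transcription of the REV-ERB, PAR bZIP and DEC genes. REV-ERBα and REV-ERBβ, encoded by Nr1d1 and Nr1d2, repress genes that carry ROR response elements, Arntl and Nfil3 among them, whereas the ROR receptors activate the same elements. DBP, TEF and HLF activate genes through D-boxes, NFIL3 represses through the same sequence, and the DEC proteins compete for E-boxes. In liver this loop carries the time signal to lipid, bile acid, glucose and drug metabolism.

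Proximal promoters were read from RefSeq sequences of GRCm38.p6, the build of the deposited table, over the 250 bases before each annotated start, on both strands. A promoter was present in the reference table for 8 of the 9 genes, and 4 of those 8 held at least 1 of the motifs searched. The motifs were the E-box CACGTG, its variant CACGTT, the ROR element core TAGGTCA and the D-box TTATGNAA. The windows that held one are shown because clock factors, members of this group among them, bind elements with these letters. The motif is in capitals, and each sequence is given along the strand of its gene, from upstream to downstream. The opposite strand is the one opposite to that of the gene.
Nr1d1, chr11:98775378-98775429, CACGTT on the opposite strand: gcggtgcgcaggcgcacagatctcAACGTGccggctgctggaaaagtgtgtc
Tef, chr15:81802534-81802563, E-box: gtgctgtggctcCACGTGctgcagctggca
Tef, second promoter, chr15:81811252-81811305, E-box: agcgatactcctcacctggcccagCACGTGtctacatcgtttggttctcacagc
Nfil3, chr13:52981040-52981062, TAGGTCA on the opposite strand: gcgctcggaacTGACCTActaac
Bhlhe41, chr6:145865556-145865585, E-box: tggtacgttccgCACGTGagctgggtgctg

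The Nfil3 element ended 6 bases before the RefSeq start, and the Nr1d1 element 23 bases before it. The E-boxes of Tef lay 122 and 133 bases before their starts, and that of Bhlhe41 148 bases before. The Nfil3 element and the first Tef E-box fell inside an exon of the longer GENCODE gene models. Among all 32851 promoters of the same length, 6.02% held CACGTG, 3.85% held CACGTT, 3.07% held the D-box and 2.23% held TAGGTCA. No match was found in the windows of Nr1d2, Rora, Dbp or Hlf, and a match is a description of letters, not evidence of a bound site.

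Expression is given in FPKM, a read density scaled to transcript length and to the size of the library, which allows levels to be compared between genes. The libraries were alike in their summed FPKM, from 634683 to 759355, and the steps between low values put their relative depths within 0.707 to 1.27 of the first library. Hepatocyte markers were abundant in every library, with the 7 listed genes summing to between 28452 and 43282 FPKM, although albumin was listed at 0 in all 12 libraries. The 3 vehicle mice of ZT0 were more spread than any other group for several clock transcripts: replicate 3 had the lowest Nr1d1, Dbp, Tef and Per3 and the highest Nfil3 and Arntl of its group. In that mouse Arntl stood at 9.99 FPKM against 4.95 and 7.18, and Per3 at 0.657 FPKM against 2.49 and 1.38. Results that rest on this mouse are given with and without it. As these are bulk livers, fewer cells of a type and less RNA per cell cannot be told apart.

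The first comparison asked how these factors differed between lights-on and lights-off livers. Of the 8 genes tested, 6 differed between ZT12 and ZT0 in vehicle mice at an adjusted p under 0.05, against 10.4% of all genes tested, and the same 6 did so in Libramed mice, against 12.4%. Dbp, Tef, Hlf and Bhlhe40 rose at ZT12 and Nr1d1 and Nfil3 fell, under both treatments. All genes tested rose in 5.62% and fell in 4.78% of cases in vehicle mice, and rose in 7.00% and fell in 5.36% in Libramed mice. Nr1d2 and Rora did not pass the test under either treatment. Without overlap between the ZT0 and ZT12 mice were 7 of the 8 genes in vehicle livers (33.2% of all genes) and 6 of the 8 in Libramed livers (34.9%).

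**Figure D1:**
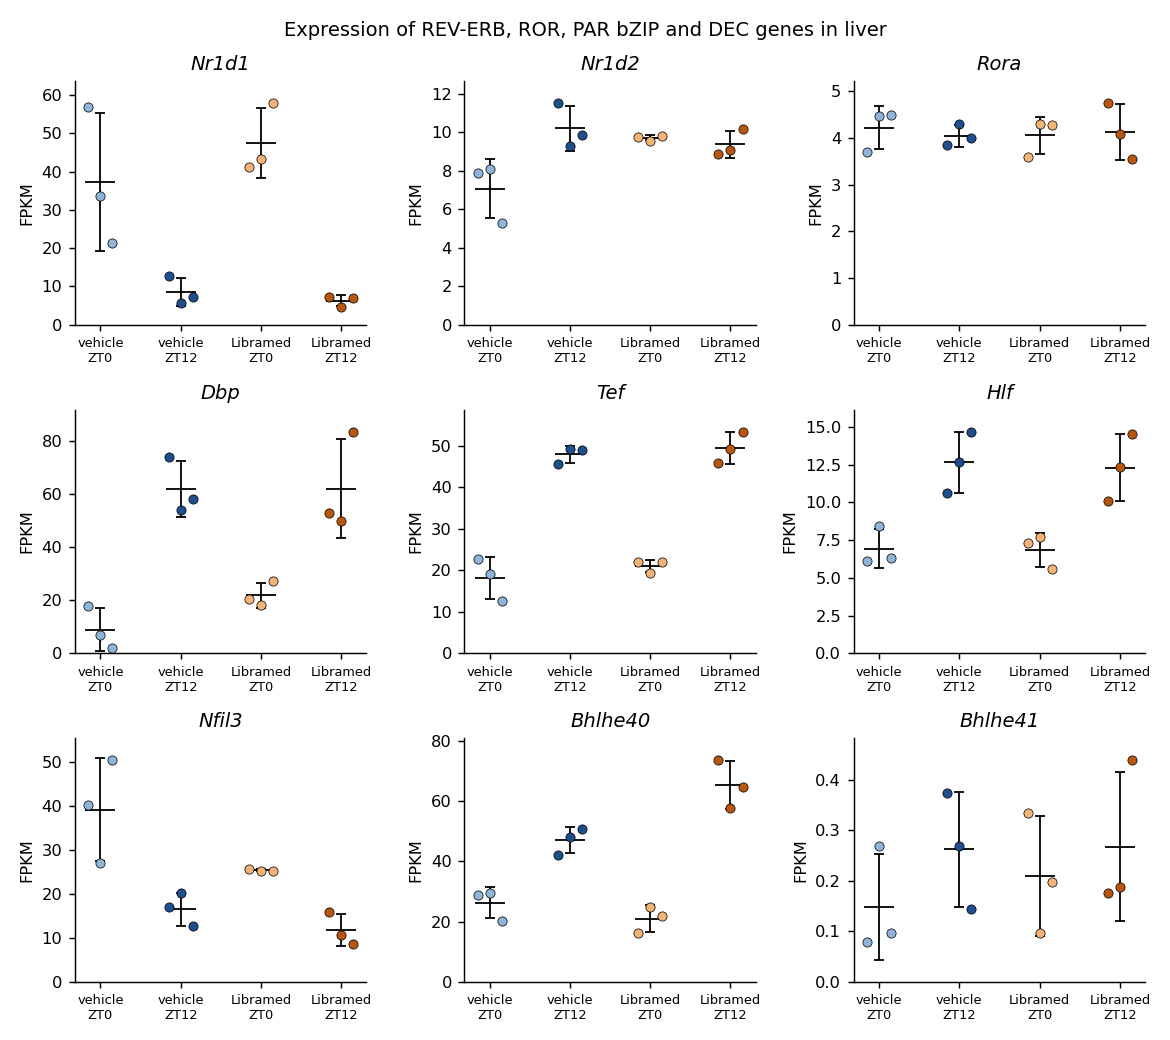
Expression of the 9 genes in FPKM on linear axes from 0, with 1 point per mouse and bars for the mean and SD of 3 mice in each of the 4 groups. Dbp, Tef, Hlf and Bhlhe40 sit higher at ZT12 and Nr1d1 and Nfil3 lower. Nr1d2 is lowest in vehicle mice at ZT0, Rora changes little between groups, and Bhlhe41 stays under 0.5 FPKM.

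Nr1d1 (chr11:98767932-98775333, minus strand, mm10), the heme receptor and repressor REV-ERBα, had the deepest fall. At ZT0 the vehicle mice held 56.7, 33.7 and 21.4 FPKM and the Libramed mice 41.2, 43.2 and 57.8 FPKM. At ZT12 the levels were 12.8, 5.65 and 7.22 FPKM in the vehicle group, and the Libramed group held 7.29, 4.69 and 7.0 FPKM. Every ZT0 mouse stood above every ZT12 mouse. Mean Nr1d1 was 4.36-fold lower at ZT12 in vehicle mice and 7.49-fold lower in Libramed mice. On the log2(FPKM + 1) scale, which understates the change of low genes, the difference was -1.97 (SE 0.39, adjusted p = 0.0271) in vehicle and -2.73 (SE 0.18, adjusted p = 0.000819) in Libramed mice, where it was the third largest fall of all genes tested. Ordered by mean, the ZT0 groups came first and the treatments within each time overlapped.

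Nr1d2 (chr14:18204054-18239127, minus strand), the REV-ERBβ paralog, did not share this pattern. Vehicle mice held 7.87, 8.08 and 5.29 FPKM at ZT0 and 11.5, 9.27 and 9.84 FPKM at ZT12, with no overlap. Libramed mice held 9.75, 9.57 and 9.82 FPKM at ZT0 and 8.89, 9.08 and 10.2 FPKM at ZT12, which overlapped. The time difference was 0.49 on the log2 scale in vehicle mice (SE 0.16, adjusted p = 0.107) and -0.05 in Libramed mice (SE 0.08, adjusted p = 0.749). The vehicle value passed the threshold when all 12 libraries shared 1 estimate of spread (adjusted p = 0.0302), and with Cyber-T, the variance-pooling test of the study, which called 7 of the 8 genes in the 6 vehicle libraries. Vehicle ZT0 was the only group whose range did not touch that of its neighbor in the order of Nr1d2 means.

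Consequently the balance of the REV-ERB transcripts turned over with time. The ratio of Nr1d1 to Nr1d2 FPKM within a library lay between 4.05 and 7.21 at ZT0 in vehicle mice and between 4.23 and 5.89 in Libramed mice. At ZT12 it lay between 0.610 and 1.11 in vehicle mice and between 0.516 and 0.820 in Libramed mice. At ZT0 Nr1d1 was thus the more abundant transcript in all 6 livers.

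Rora (chr9:68653786-69388246, plus strand), which encodes the activator of ROR elements, was the flattest gene of the group. Its 12 values lay between 3.55 and 4.74 FPKM, and all 4 groups overlapped. The time differences were -0.05 (95% interval -0.28 to 0.18) in vehicle and 0.01 (-0.25 to 0.28) in Libramed mice on the log2 scale. Its relative Rorb was listed at 0 in all 12 libraries.

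Dbp (chr7:45705088-45710203, plus strand), the founding PAR bZIP factor, had the widest range of the group. Its ZT0 levels in vehicle mice were 17.9, 6.97 and 1.85 FPKM, a 9.72-fold spread among 3 mice. The Libramed mice of ZT0 held 20.3, 18.2 and 27.2 FPKM, all above the vehicle mice. At ZT12 Dbp stood at 74.0, 54.0 and 58.0 FPKM in vehicle livers and at 52.8, 49.8 and 83.5 FPKM in Libramed livers. All ZT12 livers were above all ZT0 livers. Means rose 6.95-fold in vehicle and 2.83-fold in Libramed mice. The log2 difference was 3.05 (SE 0.61, adjusted p = 0.0284) in vehicle mice, the seventh largest rise of all genes tested, and 1.44 (SE 0.22, adjusted p = 0.00991) in Libramed mice. Without vehicle ZT0 replicate 3 the vehicle log2 difference was 2.35, and without replicate 1 it was 3.71.

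Tef (chr15:81802421-81826863, plus strand), the second PAR bZIP gene, varied less between mice. Vehicle livers held 22.8, 19.0 and 12.6 FPKM at ZT0 and 45.6, 49.2 and 49.0 FPKM at ZT12. Libramed livers held 22.0, 19.4 and 21.9 FPKM at ZT0 and 45.8, 49.2 and 53.4 FPKM at ZT12. Both treatments reached nearly equal levels at ZT12, and the times did not overlap. Mean Tef rose 2.64-fold in vehicle mice (log2 difference 1.39, SE 0.20, adjusted p = 0.0101) and 2.34-fold in Libramed mice (1.19, SE 0.09, adjusted p = 0.00104).

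Hlf (chr11:90336536-90390895, minus strand), the third PAR bZIP gene, was the least abundant of them. Vehicle mice held 6.09, 8.45 and 6.29 FPKM at ZT0 and 10.6, 12.7 and 14.7 FPKM at ZT12. Libramed mice held 7.28, 7.73 and 5.57 FPKM at ZT0 and 10.1, 12.3 and 14.5 FPKM at ZT12. The treatments were close to each other at both times, and every ZT12 mouse exceeded every ZT0 mouse. The rise was 1.82-fold with vehicle (log2 difference 0.78, SE 0.15, adjusted p = 0.0271) and 1.79-fold with Libramed (0.76, SE 0.16, adjusted p = 0.0249).

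Nfil3 (chr13:52967209-52981073, minus strand), the D-box repressor, moved against the PAR bZIP genes. Its ZT0 levels were 40.1, 27 and 50.4 FPKM in vehicle and 25.7, 25.2 and 25.3 FPKM in Libramed mice. At ZT12 they were 16.9, 20.1 and 12.6 FPKM in vehicle and 15.8, 10.7 and 8.61 FPKM in Libramed mice. The ZT0 livers were again separate from the ZT12 livers, and the Libramed mice of ZT0 lay close together. Nfil3 was 2.37-fold lower at ZT12 with vehicle (log2 difference -1.18, SE 0.25, adjusted p = 0.0325) and 2.17-fold lower with Libramed (-1.09, SE 0.19, adjusted p = 0.0140).

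The ratio of activator to repressor transcripts at the D-box therefore spanned a wide range. Summed Dbp, Tef and Hlf stood at 0.411 to 1.27 times Nfil3 in vehicle mice at ZT0 and at 5.77 to 9.66 times at ZT12. In Libramed mice the ratio was 1.80 to 2.16 at ZT0 and 6.89 to 17.6 at ZT12. The ratio at ZT0 was thus higher in each Libramed mouse than in any vehicle mouse, while the ZT12 ranges overlapped. Vehicle replicate 3 had the lowest ZT0 ratio, 0.411 against 1.17 and 1.27, and the lowest Dbp share. With 1 FPKM added to both terms, the log2 ratio at ZT0 was 1.17 higher in Libramed mice. With single libraries left out, that difference ranged from 0.66 to 1.46. Dbp made up 8.91% to 38.3% of the summed PAR bZIP transcript in vehicle mice at ZT0, 40.0% to 49.8% in Libramed mice at ZT0 and between 44.7% and 56.8% in all mice at ZT12. These ratios are built from the values above and were not tested.

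**Figure D2:**
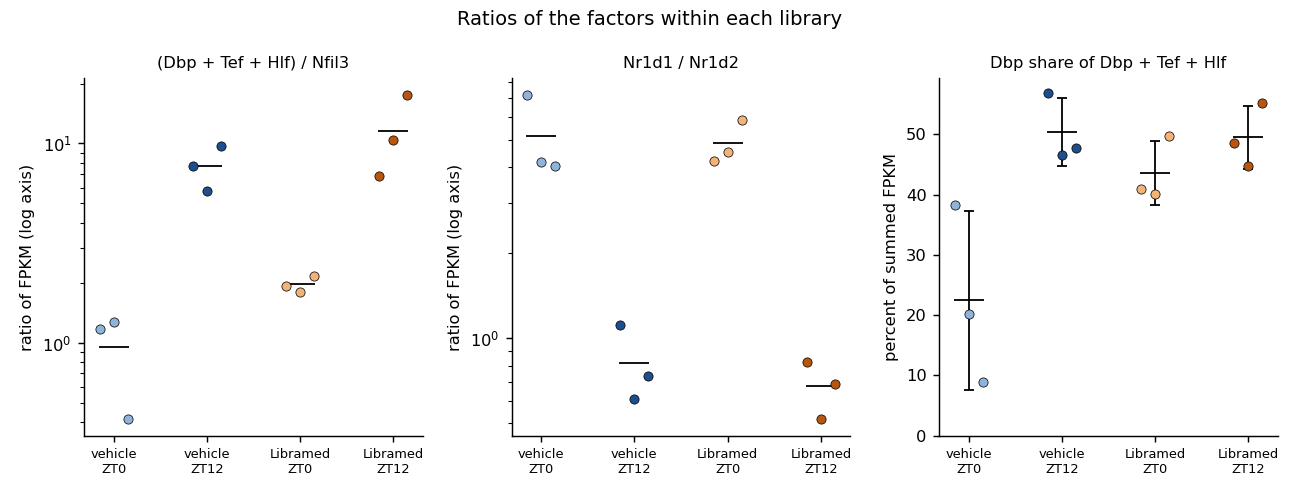
Ratios of the factors within each library, with 1 point per mouse, a line at the mean of 3 mice, and for the share an SD bar. The left and middle panels have log axes for summed Dbp, Tef and Hlf over Nfil3 and for Nr1d1 over Nr1d2, and the right panel gives the percentage of Dbp in summed Dbp, Tef and Hlf. The left ratio is between 0.411 and 2.16 at ZT0 and at least 5.77 at ZT12, the middle ratio runs the other way, and the lowest Dbp share is 8.91% in 1 vehicle mouse of ZT0.

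Bhlhe40 (chr6:108660629-108666925, plus strand), which encodes the E-box repressor DEC1, rose under both treatments. Vehicle mice held 28.9, 29.4 and 20.2 FPKM at ZT0 against 42.2, 48.1 and 50.6 FPKM at ZT12. Libramed mice held 16.2, 24.7 and 22.0 FPKM at ZT0 against 73.6, 57.7 and 64.7 FPKM at ZT12. The groups formed 3 separate steps, with both ZT0 groups lowest, vehicle ZT12 above them and Libramed ZT12 highest. The rise was 1.79-fold in vehicle mice (log2 difference 0.83, SE 0.16, adjusted p = 0.0230) and 3.12-fold in Libramed mice (1.61, SE 0.16, adjusted p = 0.00272).

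Bhlhe41 (chr6:145858243-145865558, minus strand), which encodes DEC2, was barely detected. Its 12 values lay between 0.0784 and 0.439 FPKM, and all groups overlapped. At its mean of 0.222 FPKM it stood 12051st of 23849 symbols, whereas Bhlhe40, with a mean of 39.9 FPKM, stood 1646th. No difference of Bhlhe41 was detectable at this level, and it entered no test across genes.

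**Figure D3:**
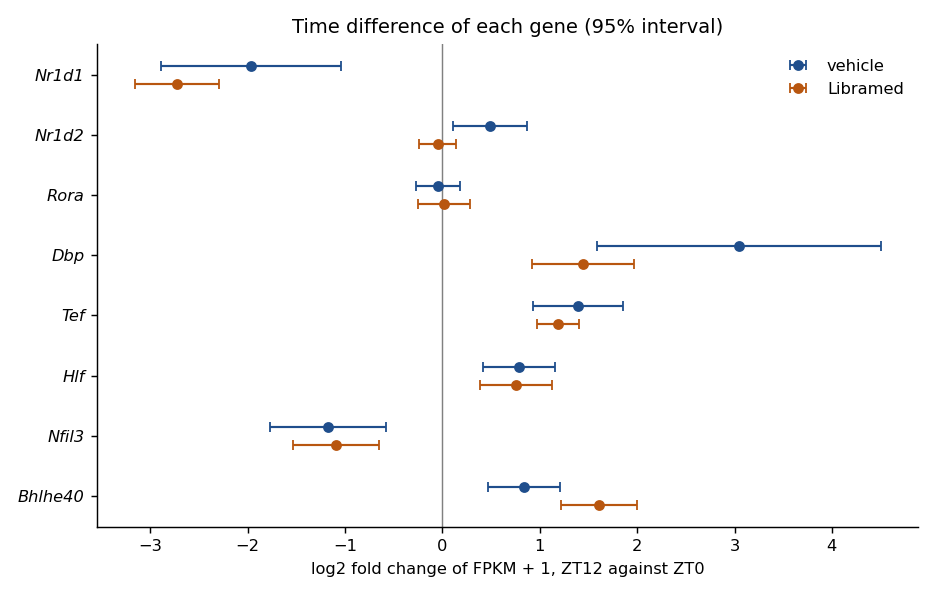
Log2 difference of FPKM + 1 between ZT12 and ZT0 for the 8 genes tested, with points for the estimate and bars for its 95% interval, in vehicle and in Libramed mice. The intervals of Dbp, Tef, Hlf, Bhlhe40, Nr1d1 and Nfil3 lie clear of 0 under both treatments, those of Rora span 0 under both, and that of Nr1d2 is clear of 0 in vehicle mice alone, where its adjusted p was 0.107.

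Over both treatments together, the 6 genes differed between 6 ZT12 and 6 ZT0 livers, against 30.0% of all genes. None of the 6 overlapped between times (13.3% of all genes). For each of them the exact two-sided permutation of times within treatments gave p = 0.005, the smallest p its 400 arrangements can give. That p follows from the lack of overlap and is not a separate reading. The exact permutation of 3 mice against 3 has 20 arrangements and cannot go below p = 0.1. The count in vehicle mice depended on single libraries: it was 0 without vehicle ZT12 replicate 2 and 1 without vehicle ZT12 replicate 3, while the differences kept their direction. Without vehicle ZT0 replicate 3 it was 4, as Hlf and Nfil3 no longer passed. With each of the 6 vehicle libraries left out in turn, Nfil3 lost its call in 5 cases and Dbp and Hlf in 4 each. Nr1d1 lost it in 3, Bhlhe40 in 2 and Tef in 1. Markers of some cell types differed with time too. Of 7 hepatocyte markers, none was called in vehicle mice (10.4% of all genes) and 2 rose in Libramed mice (7.00%). Of 4 Kupffer cell and macrophage markers tested, none was called under either treatment (10.4% and 12.4% of all genes). The 5 endothelial markers summed to 6.84 to 9.96 FPKM at ZT0 and 3.96 to 5.48 FPKM at ZT12 in vehicle mice, and to 8.08 to 9.97 and 5.08 to 6.26 FPKM in Libramed mice. The 5 stellate cell markers summed to 46.8 to 60.7 FPKM at ZT0 and 23.1 to 40.9 FPKM at ZT12 in Libramed mice, and their ranges overlapped in vehicle mice. Most of the stellate sum was Dcn, with means of 46.7 and 28.7 FPKM at ZT0 and ZT12 in Libramed mice. The part of these markers in the time differences was not tested.

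Genes linked to these factors were then counted from hand-written lists. These lists were drawn up with earlier results of these data known, so their shares are not an unbiased comparison with all genes. Of all genes tested, 5.62% rose and 4.78% fell in vehicle mice, and 7.00% rose and 5.36% fell in Libramed mice. The lists share genes, so their counts are not separate readings. Per1 and Per3 are both PAR bZIP-linked genes and clock partners. Arntl, Clock, Npas2 and Cry1 are both clock partners and genes with REV-ERB and ROR elements. Of 10 tested genes downstream of the PAR bZIP factors, 8 rose at ZT12 and none fell under each treatment, with a median log2 difference of 1.91 in vehicle and 2.03 in Libramed mice against 0.01 for all genes tested in both. Usp2, a clock-controlled deubiquitinase, rose by 3.39 and 3.85 on the log2 scale in vehicle and Libramed mice. Alas1, the first enzyme of heme synthesis and so of the REV-ERB ligand, rose by 2.34 and 2.86. Por, the reductase that feeds electrons to cytochromes P450, rose by 2.28 and 2.25, and Cyp7a1, the rate-limiting enzyme of bile acid synthesis, by 1.92 and 2.00. Cyp2c37 and Ppara did not pass the test under either treatment. Cyp2a4 and Cyp2b10 were below the filter.

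Of 9 tested genes that carry REV-ERB and ROR elements, none rose and 5 fell in vehicle mice (5.62% and 4.78% of all genes). In Libramed mice 2 rose and 5 fell (7.00% and 5.36%). Nfil3 is in this list as well, and its values are given above. Arntl, the partner of CLOCK, fell by 1.64 on the log2 scale in vehicle mice and by 1.35 in Libramed mice, and Clock by 0.55 and 0.53. Elovl3, a fatty acid elongase, fell by 1.91 and 1.72, and Insig2, which retains SREBP in the endoplasmic reticulum, by 1.33 and 1.28. G6pc, the last enzyme of glucose output, had a log2 difference of 1.08 in vehicle mice (adjusted p = 0.124) and rose by 1.84 in Libramed mice (adjusted p = 0.00440). Under each treatment 3 of the 9 had a positive and 6 a negative log2 difference, while Nr1d1 fell under both. None of the 9 had an unadjusted p under 0.05 for the limma interaction of time and treatment (6.63% of all genes).

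Among 11 tested clock partners, 4 rose and 2 fell in vehicle mice (5.62% and 4.78% of all genes). In Libramed mice 6 rose and 2 fell (7.00% and 5.36%). Ciart, a repressor of CLOCK and BMAL1, rose by 2.82 and 3.27 on the log2 scale. Per1 rose by 1.39 and 2.39, Per2 by 1.5 and 2.22, and Per3 by 2.07 and 2.07. Npas2, the CLOCK paralog, was below the filter. It held 0.406, 0.780 and 1.73 FPKM in vehicle mice at ZT0 and at most 0.0258 FPKM in any mouse at ZT12. Of 5 corepressor and turnover genes of REV-ERB, the corepressor Ncor1 and the deacetylase Hdac3 among them, none passed the test under either treatment. Over both treatments together 1 of the 5 was called, as higher at ZT12 (30.0% of all genes were called in either direction).

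**Figure D4:**
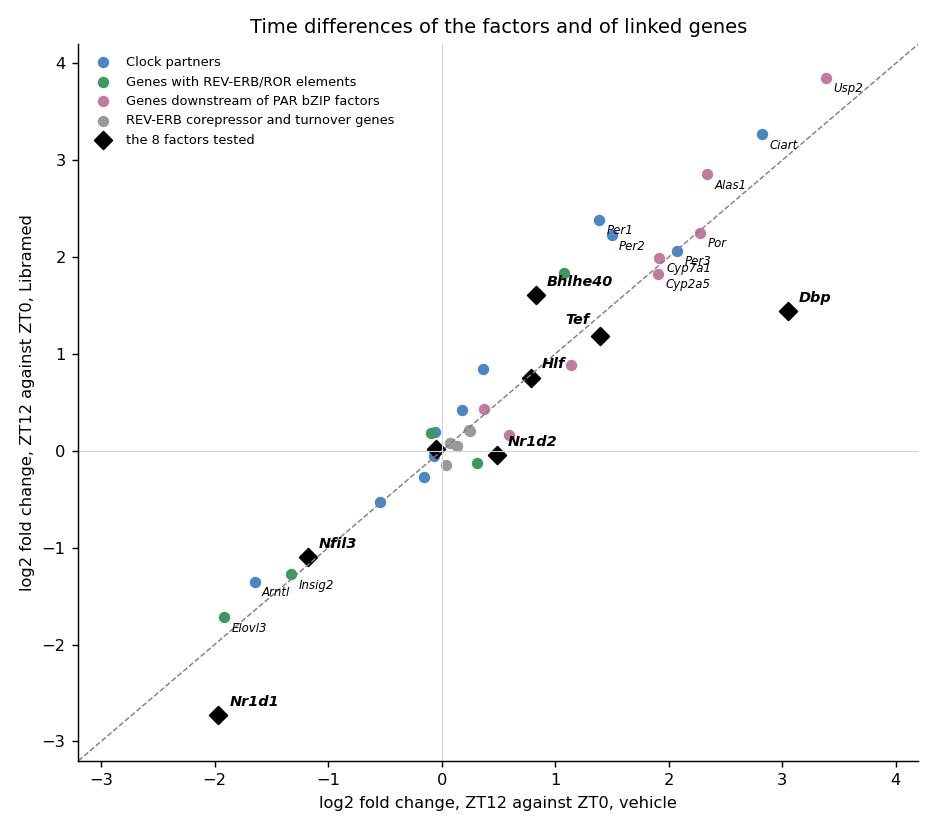
Log2 difference between ZT12 and ZT0 in vehicle mice (x axis) and in Libramed mice (y axis) for the 8 factors tested (black diamonds) and linked genes colored by list, with a dashed line of equality. Dbp lies furthest from the line among the factors, at 3.05 and 1.44, and most PAR bZIP-linked genes lie in the upper right, led by Usp2 at 3.39 and 3.85.

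The second comparison asked whether Libramed changed these levels at a given time. With limma no gene passed the adjusted threshold at either time (0.00% of all genes tested), so no member did. At ZT0, 3 of the 8 genes had an unadjusted p under 0.05 (905 genes, or 9.23%, of all tested), and the same 3 did not overlap between treatments (15.1% of all genes). Dbp was 2.45-fold higher in Libramed than in vehicle mice (log2 difference 1.58, 95% interval 0.15 to 3.02, adjusted p = 0.526). Nr1d2 was 1.37-fold higher (0.43, 0.08 to 0.78, adjusted p = 0.506). Nfil3 was 1.54-fold lower (-0.56, -1.05 to -0.08, adjusted p = 0.521). Higher Dbp and lower Nfil3 values thus stood side by side in the Libramed mice at lights-on, without passing the test across genes.

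These ZT0 values rest in part on vehicle replicate 3, the mouse with the lowest Dbp and Nr1d2 and the highest Nfil3. Without it the log2 differences were 0.88 for Dbp, 0.26 for Nr1d2 and -0.36 for Nfil3, in the same direction as before. Leaving out vehicle replicate 1 moved Dbp to 2.25. With Cyber-T, Dbp at ZT0 reached an adjusted p of 0.0430, as 1 of 69 genes called. The remaining members overlapped between treatments at ZT0: Nr1d1 differed by 0.43 (-0.33 to 1.19), Tef by 0.25 (-0.22 to 0.71), Bhlhe40 by -0.31 (-0.77 to 0.15), Rora by -0.04 (-0.29 to 0.21) and Hlf by -0.01 (-0.38 to 0.35) on the log2 scale, each with its 95% interval.

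Cell type markers differed between the treatments at ZT0 as well. The 7 Kupffer cell and macrophage markers summed to 20.4 to 25.2 FPKM in vehicle and 11.5 to 18.8 FPKM in Libramed mice, and 3 of the 4 tested had an unadjusted p under 0.05. The hepatocyte markers summed to 29628 to 33449 FPKM in vehicle and 35057 to 43282 FPKM in Libramed mice. Most of that sum was Apoa1, with means of 22771 and 29394 FPKM. As a list they did not move together: 3 of the 7 were higher and 4 lower, with a median log2 difference of -0.0048. The part of these cell type markers in the differences of Dbp, Nr1d2 and Nfil3 was not tested.

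At ZT12, Bhlhe40 was the 1 gene of the 8 with an unadjusted p under 0.05 (661 genes, or 6.74%, of all tested) and the 1 that did not overlap between treatments (13.1% of all genes). It was 1.39-fold higher in Libramed than in vehicle mice (log2 difference 0.46, 95% interval 0.20 to 0.73, adjusted p = 0.729). Leaving out any 1 of the 6 libraries kept it between 0.38 and 0.55. Cyber-T called 23 genes at ZT12 and none of the members. The hepatocyte markers summed to 28452 to 32353 FPKM in vehicle and 32774 to 39470 FPKM in Libramed mice at ZT12, 4 of the 7 had an unadjusted p under 0.05, and their part in this difference was not tested. Dbp and Tef were nearly equal between treatments at ZT12, with log2 differences of -0.02 (-0.53 to 0.48) and 0.04 (-0.15 to 0.23), and Nfil3 differed by -0.48 (-1.04 to 0.08). For Nr1d1 the difference was -0.33 (-1.0 to 0.33), of the opposite sign to that at ZT0. Over both times, 1 of the 8 genes, Nfil3, had an unadjusted p under 0.05 (1025 genes, or 10.5%, of all tested), at a log2 difference of -0.52 (adjusted p = 0.364, exact permutation p = 0.025).

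**Figure D5:**
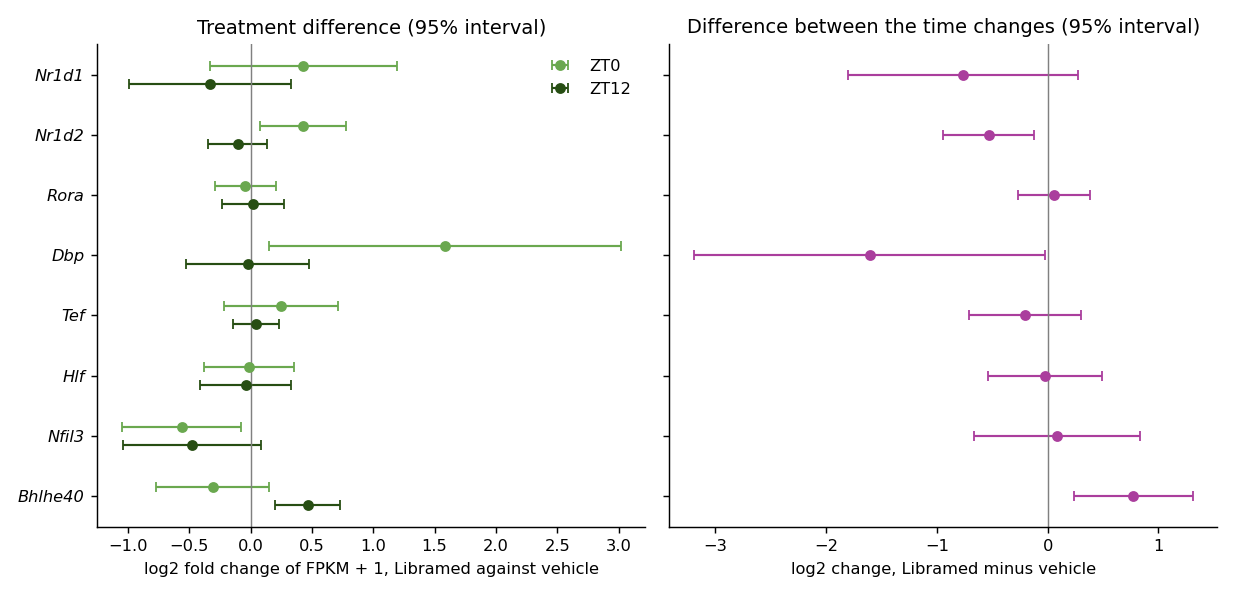
Left, log2 difference of FPKM + 1 between Libramed and vehicle mice at ZT0 and at ZT12. Right, the difference between the time changes, Libramed minus vehicle. Points are estimates and bars 95% intervals for the 8 genes tested. At ZT0 the interval of Dbp runs from 0.15 to 3.02, at ZT12 that of Bhlhe40 lies above 0, and on the right those of Nr1d2, Dbp and Bhlhe40 exclude 0 before adjustment over all genes.

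The third comparison asked whether the time difference itself differed between treatments. No gene passed the adjusted threshold for this interaction (0.00% of all genes), and 3 of the 8 members had an unadjusted p under 0.05 (650 genes, or 6.63%, of all tested). The rise of Bhlhe40 was 0.77 larger on the log2 scale in Libramed mice (SE 0.24, adjusted p = 0.597, exact permutation p = 0.025). The permutations here shuffled treatments within each time. Their null is thus no treatment difference at either time, so they do not test the interaction alone. The time difference of Nr1d2 was 0.49 with vehicle and -0.05 with Libramed, an interaction of -0.53 (SE 0.19, adjusted p = 0.657, exact permutation p = 0.02). The rise of Dbp differed by -1.61 between treatments (SE 0.72, adjusted p = 0.743, exact permutation p = 0.115). Without vehicle ZT0 replicate 3 these values were -0.36 for Nr1d2 and -0.90 for Dbp. The vehicle time difference, the ZT0 treatment difference and the interaction share the 3 vehicle ZT0 libraries and are not separate readings. Nr1d1 had an interaction of -0.76 (95% interval -1.80 to 0.27), and Tef, Hlf, Nfil3 and Rora had values from -0.20 to 0.08.

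Some of these genes share transcribed sequence with a neighbor on the other strand. The exons of Dbp overlap those of Sphk2 over 539 bases (18% of Dbp exon sequence), and the exons of Nr1d1 overlap those of Thra over 263 bases (8.55%). For Bhlhe41, 1280 bases (19.0%) overlap the annotated transcript Gm43909. Labels and methods name different library kits, so whether strand was used in counting is not settled here, and reads in the shared bases could count for either gene. Sphk2 was lower at ZT12 than at ZT0, with means of 19.6 and 23.5 FPKM in vehicle mice and 17.3 and 29.2 FPKM in Libramed mice. At ZT0 it was higher in Libramed mice (26.6 to 31.0 FPKM) than in vehicle mice (21.3 to 25.4 FPKM), without overlap, as was Dbp. Thra stayed between 1.74 and 3.44 FPKM, under the ZT0 levels of Nr1d1. The part of shared bases in these values was not tested.

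Lastly, the genes whose log2(FPKM + 1) was most like each factor over the 12 libraries were listed by Pearson's r, as a description in which the 4 groups set much of the likeness. Closest to Tef were the mitotic kinase Wee1 (r = 0.98), the lipid transporter Mfsd2a (r = 0.98) and Per3 (r = 0.98). Closest to Bhlhe40 were the kinase Mknk2 (r = 0.96), Klc4 (r = 0.95) and Per1 (r = 0.95). Dbp was nearest to the urate and glucose transporters Slc2a9 (r = 0.94) and Slc2a2 (r = 0.93) and to Gch1 (r = 0.92). For Nr1d1 these were the seryl-tRNA synthetase Sars (r = 0.96), Arrdc3 (r = 0.95) and BC004004 (r = 0.94). Hlf was nearest to Aifm2 (r = 0.97), Tns1 (r = 0.97) and Pdxk (r = 0.96), and Nfil3 to Tssc1 (r = 0.94), Stard13 (r = 0.94) and Stra6l (r = 0.94). The flatter genes had weaker neighbors, Nr1d2 with Cyb5rl (r = 0.92), Hnf4aos (r = 0.89) and Fam151b (r = 0.88), and Rora with Myh9 (r = 0.83), Poll (r = 0.80) and Etl4 (r = 0.79). No member appeared among the neighbors because members were left out of this ranking.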

How the data were processed

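Liver RNA of 12 mice was sequenced, 3 per group as the labels give them. The authors deposited 1 table of FPKM per gene and sample. The labels name a TruSeq v2 kit, TopHat, Cuffnorm and mm10, whereas the methods describe stranded mRNA libraries, ELAND alignment of single-end reads and RPKM, and which applies is not settled here. The table had 24138 lines, and where a symbol recurred (289 lines) its most abundant line represented it. Genes averaging 1 FPKM or more across the 12 libraries were log2-transformed after adding 1 and tested by limma 3.58.1 in R 4.3.3 (lmFit, then eBayes with trend), with two-sided p-values that were Benjamini-Hochberg adjusted over 9806 genes and called below 0.05. Each simple contrast used its 6 libraries, and the interaction and pooled contrasts used 12. Exact permutations served for single genes. No counts were given, so sequencing depth is known only in relative terms. All 9 members, the linked genes of the lists and the 3 most alike genes per member were named. Some listed genes are not reported here and were left out of the list counts. Members and lists were chosen with earlier results of these data known. Replicates are labelled as biological. The scripts were tested on simulated data.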

Additional observations from a re-analysis of the deposited data

Results flagged for a closer look

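The time difference differed between treatments for 3 of the 8 genes tested, by the interaction term of the 12-library limma fit at an unadjusted p under 0.05 (650 genes, or 6.63%, of all tested), and none passed the adjusted threshold. For Bhlhe40 the interaction was 0.77 on the log2 scale (95% interval 0.24 to 1.31, adjusted p = 0.597): the mean rose from 26.2 to 47.0 FPKM in vehicle and from 21.0 to 65.3 FPKM in Libramed mice. For Nr1d2 it was -0.53 (-0.94 to -0.13, adjusted p = 0.657), with means of 7.08 and 10.2 FPKM at ZT0 and ZT12 in vehicle mice and of 9.71 and 9.38 FPKM in Libramed mice. For Dbp it was -1.61 (-3.19 to -0.02, adjusted p = 0.743), with means of 8.92 and 62.0 FPKM in vehicle and of 21.9 and 62.0 FPKM in Libramed mice. The exact permutation of treatments within each time gave p = 0.025 for Bhlhe40, 0.02 for Nr1d2 and 0.115 for Dbp. Its null is no treatment difference at either time, so it does not test the interaction alone. With each of the 12 libraries left out in turn, the interaction ranged from 0.61 to 0.94 for Bhlhe40, from -0.63 to -0.36 for Nr1d2 and from -2.27 to -0.90 for Dbp, the last 2 weakest without vehicle ZT0 replicate 3.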

How the results depend on the processing

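The 6 time calls depended on the filter and on single libraries. Without a filter on low values, 1 member was called in vehicle mice (515 genes in all, against 1020) and 3 in Libramed mice (639 against 1212). Leaving out 1 library at a time gave 0 to 4 members called in vehicle mice and 4 to 6 in Libramed mice. In vehicle mice 226 genes were called without vehicle ZT12 replicate 2, 277 without replicate 3, and 279 without vehicle ZT0 replicate 3, from fewer samples. Cyber-T called 1 member, Dbp, between treatments at ZT0 (69 genes). Apart from these and the replicate block, the 118 other repeats of the counts of members called were unchanged or stayed within 1.5 times the reported ones. Most of the 118 were treatment and interaction counts of 0 that stayed 0. Bhlhe41 was too low to test with the filter, and its log2 differences without it were 0.14 in vehicle and 0.07 in Libramed mice. The cause of the other changes was not tested.

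With the replicate number as a block, 3 members (279 genes) were called over time in vehicle mice. Deviations of same-numbered libraries correlated between -0.28 and 0.26. With 3 libraries per group, these values show no clear pairing by number and cannot exclude a shared batch.

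Small differences changed sign. With median-ratio and quantile scaling the ZT0 treatment difference of Hlf became 0.0048 and 0.011, and that of Rora over both times 0.0013 and 0.017. With single libraries left out, the treatment difference over both times ranged from -0.0070 to 0.16 for Bhlhe40, -0.086 to 0.038 for Hlf, -0.12 to 0.22 for Nr1d1 and -0.057 to 0.027 for Rora. At ZT0 it ranged from -0.095 to 0.12 for Hlf and -0.12 to 0.022 for Rora. At ZT12 it ranged from -0.26 to 0.11 for Dbp, -0.16 to 0.084 for Hlf, -0.069 to 0.099 for Rora and -0.012 to 0.096 for Tef. The interaction ranged from -0.16 to 0.098 for Hlf, -0.14 to 0.32 for Nfil3, -0.024 to 0.14 for Rora and -0.38 to 0.025 for Tef. The time difference of Rora ranged from -0.059 to 0.025 over both treatments and from -0.071 to 0.097 in Libramed mice. None of these was called.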
